A study of Mus musculus with 2 samples.

Results

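The 10 genes described here are isotypes of alpha and beta tubulin, the pair of proteins that join into dimers and build microtubules. They are 10 of the 43346 genes in the deposited tables, taken from a fixed list of symbols matched by gene identifier to the mouse annotation. The alpha isotypes are Tuba1a, Tuba1b, Tuba1c and Tuba4a, and the beta isotypes are Tubb2a, Tubb2b, Tubb3, Tubb4b, Tubb5 and Tubb6. Total RNA came from the midbrain of embryonic day 11.5 mice of strain B6NCrl. There were 2 biological replicates of 1 group, with no mutation or treatment named in the labels. Midbrains of 109 embryos were pooled for replicate 1 and of 88 embryos for replicate 2, with male and female embryos in each, so differences between single embryos cannot be seen.

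Alpha and beta tubulin are each encoded by several genes with very similar coding sequences, and the isotypes differ most in the acidic tail at the end of the protein. Dividing progenitors use microtubules for the spindle, and young neurons use them to migrate and to extend axons. Tuba1a is known as the main alpha isotype of developing neurons, Tubb3 as the neuronal beta isotype, and Tubb5 as a beta isotype of neural progenitors as well as neurons. New tubulin chains are folded by chaperones and cofactors, and the tails of assembled tubulin are then modified by enzymes that remove or add residues.

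The ends of the coding sequences are shown because the isotypes, and the enzymes that act on them, are told apart there. For the alpha isotypes Tuba1c and Tuba4a the last 33 bases of the coding sequence are given, 5′ to 3′ as transcribed, with the last sense codon before the stop codon in capitals.
Tuba1c: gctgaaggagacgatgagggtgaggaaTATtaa
Tuba4a: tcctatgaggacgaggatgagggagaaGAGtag
TAT is a codon for tyrosine, the residue that detyrosinating enzymes remove, and GAG is a codon for glutamate, so Tuba4a encodes no terminal tyrosine. These and the other sequences were read from GENCODE M21 reference transcripts on mm10, a later annotation than the one behind the tables.

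The beta tails are longer and more varied, and the last 75 bases are shown for the 5 beta isotypes that led their class, with the last sense codon again in capitals.
Tubb5: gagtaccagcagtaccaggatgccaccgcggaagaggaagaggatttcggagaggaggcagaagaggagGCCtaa
Tubb3: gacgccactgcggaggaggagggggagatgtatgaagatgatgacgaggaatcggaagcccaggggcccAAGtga
Tubb4b: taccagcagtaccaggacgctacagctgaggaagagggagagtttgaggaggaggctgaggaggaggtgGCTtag
Tubb2a: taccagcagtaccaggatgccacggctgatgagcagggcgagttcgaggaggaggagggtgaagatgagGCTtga
Tubb2b: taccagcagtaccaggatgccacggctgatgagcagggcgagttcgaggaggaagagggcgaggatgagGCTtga
Tubb3 was the only isotype of these 5 to end in AAG, a lysine codon. The others ended in GCT or GCC, both codons for alanine. Tubb2a and Tubb2b differed at 3 of their last 90 bases.

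The start of the coding sequence is shown because the first residues of a new tubulin chain are read by the factor encoded by Ttc5, through which surplus tubulin leads to decay of tubulin mRNA. The first 12 bases follow, with the start codon in capitals.
Tuba1a: ATGcgtgagtgc
Tuba4a: ATGcgcgagtgc
Tubb5: ATGagggaaatc
Tubb3: ATGagggagatc
Tubb2a: ATGcgcgagatc
Tubb2b: ATGcgagagatc
Tuba1b and Tuba1c have the same 12 bases as Tuba1a, and Tubb4b has the same 12 bases as Tubb3. Ttc5 itself was at 76.8 TPM in replicate 1 and 75.6 TPM in replicate 2, where TPM is a level per transcript, scaled for its length and for the depth of the library.

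All 10 isotypes were above 1 TPM in both libraries, which held for 32.1% of all genes. Tuba1a, the highest, stood 1139-fold and 904-fold above Tuba4a, the lowest. Tuba1a was at 6799 TPM in replicate 1 and 6545 TPM in replicate 2 (6672 ± 180, SD, n = 2), and ranked 3 among all genes in each library. Tuba1b, a broadly expressed alpha isotype, was at 1646 and 1692 TPM (1669 ± 32.6). Tuba1a stood 4.13-fold above Tuba1b in replicate 1 and 3.87-fold above it in replicate 2. The remaining alpha isotypes were far lower. Tuba1c was at 72.4 and 75.6 TPM (74.0 ± 2.22). Tuba4a, best known from mature neurons and muscle, was at 5.97 and 7.24 TPM (6.61 ± 0.898), and no isotype was lower. It rested on 233 and 381 expected counts, against 280700 and 323170 for Tuba1a.

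Among the beta isotypes the levels were closer together. Tubb5 was at 1161 and 1187 TPM (1174 ± 18.5), and Tubb3 at 592 and 646 TPM (619 ± 38.1). Tubb5 was 1.96-fold and 1.84-fold above Tubb3 in the respective libraries. Tubb4b, a broadly expressed isotype also used in cilia, was at 408 and 439 TPM (423 ± 21.9). Tubb2a was at 294 and 312 TPM (303 ± 12.4), and Tubb2b, whose mutation in people disturbs neuronal migration, at 273 and 288 TPM (280.2 ± 10.6). Tubb6 was the lowest beta isotype in both libraries, at 58.0 and 65.9 TPM (62.0 ± 5.54). The bulk tissue held progenitors, neurons and other cells, so a low level in few cells and a low level per cell cannot be told apart.

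**Figure D1:**
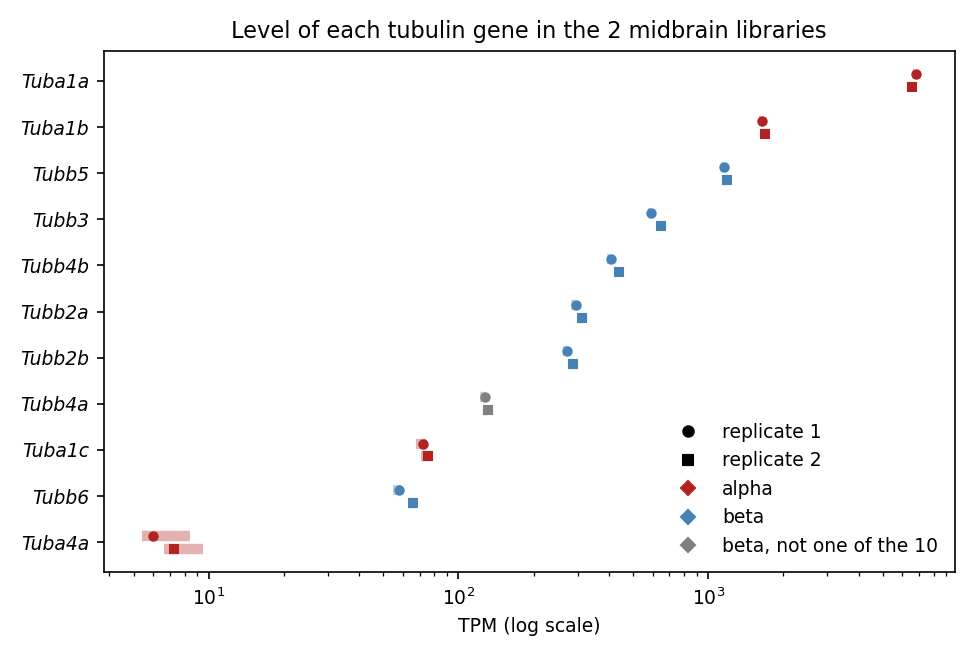
Level of each tubulin gene in TPM on a log axis, with circles for replicate 1, squares for replicate 2 and pale bars for the deposited intervals, which are narrower than the symbols for most genes. Tuba1a is highest at 6799 and 6545 TPM, Tuba4a is lowest at 5.97 and 7.24 TPM, and Tubb4a, in grey, is a beta gene outside the 10.

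The order by TPM was the same in both libraries: Tuba1a, Tuba1b, Tubb5, Tubb3, Tubb4b, Tubb2a, Tubb2b, Tuba1c, Tubb6, Tuba4a. For 9 of the 9 neighbouring pairs the deposited intervals did not overlap in either library, and no library of the lower isotype reached a library of the higher. Those intervals are computed within a library and hold no spread between embryo pools. At a minimum of 1.2-fold in both libraries, 7 of the 9 pairs were separated. The exceptions were Tubb2a over Tubb2b, at 1.08-fold in each library, and Tuba1c over Tubb6, at 1.25-fold and 1.15-fold. Tubb2b had more expected counts than Tubb2a, 13307 against 11706 in replicate 1 and 16797 against 14837 in replicate 2, and the lower TPM because its transcript is longer, at 1922 bases against 1584 in the files. Tubb5 likewise had more counts than Tuba1b, 78664 against 71985 and 96018 against 88574, and the lower TPM. With 2 libraries no test over samples was made.

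The alpha isotypes held 75.4% and 73.9% of the summed TPM of the 10 genes. The ratio of alpha to beta TPM was 3.06 in replicate 1 and 2.83 in replicate 2. Without Tuba1a in the sum, the ratio was 0.619 and 0.604. Expected counts, which are not divided by length, gave an alpha share of 70.3% and 68.8%. Within the alpha class Tuba1a held 79.8% and 78.7% and Tuba1b 19.3% and 20.3% of TPM, which left 0.879 ± 0.0414% for Tuba1c and 0.0785 ± 0.0120% for Tuba4a. Within the beta class Tubb5 held 41.7% and 40.4%, Tubb3 21.3% and 22.0%, and Tubb4b 14.6% and 14.9%. Tubb2a and Tubb2b were near equal, at 10.6 ± 0.0364% and 9.79 ± 0.00521%, and Tubb6 held 2.16 ± 0.113%. The alpha class was thus mostly Tuba1a, while on the TPM scale no beta isotype made up the larger part of its class.

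As shares of expected counts, Tubb5 made up 52.2% of the beta class in replicate 1 (95% Wilson interval 52.0% to 52.5%) and 50.9% in replicate 2 (50.6% to 51.1%). Tuba1a made up 78.7% (78.6% to 78.9%) and 77.6% (77.4% to 77.7%) of the alpha class. Between the libraries the intervals did not overlap for either gene. Of the other isotypes, Tubb2a, Tubb2b and Tubb4b had intervals that overlapped between the libraries, and the rest did not. The intervals cover counting error only, and a share within a class has no like value over all genes. Together the 10 isotypes took 507193 and 605426 expected counts, or 1.30% and 1.32% of all counts on genes.

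**Figure D2:**
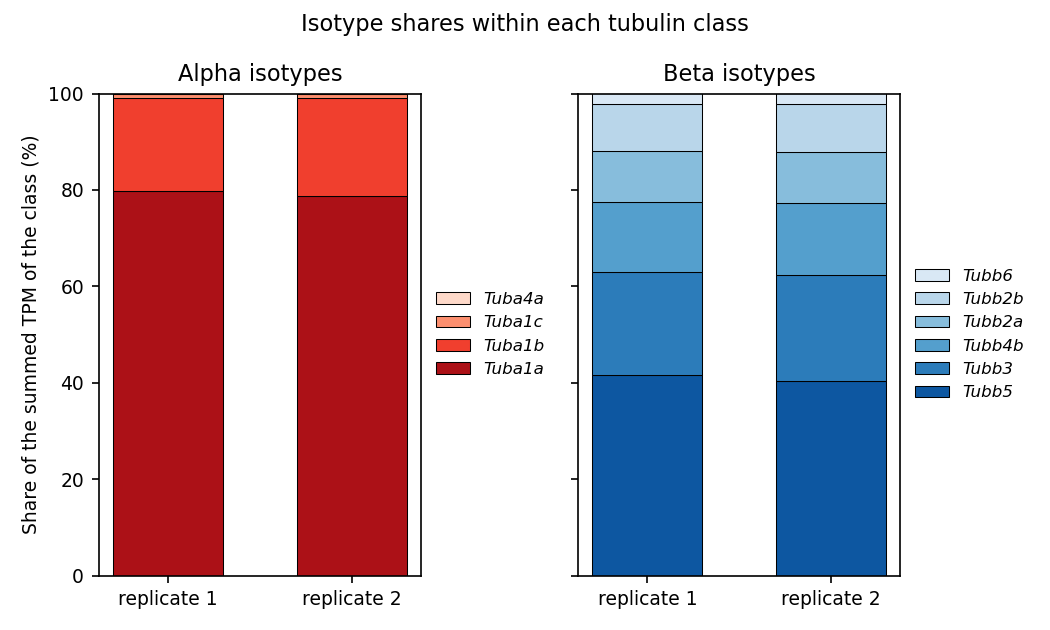
Stacked bars of each isotype's share, in percent, of the summed TPM of its class, for replicate 1 and replicate 2. Tuba1a fills 79.8% and 78.7% of the alpha bars, whereas Tubb5, the largest part of the beta bars, fills 41.7% and 40.4%.

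The coding sequences of the isotypes are alike enough for reads to match several genes, so the deposited posterior SD of each count was read beside the shared sequence. Coding identity was 98.3% between Tuba1a and Tuba1b, 97.9% between Tuba1b and Tuba1c, and 97.1% between Tuba1a and Tuba1c. Tuba4a stood apart from these, with 84.7% to 85.2% identity. Tubb2a and Tubb2b shared 96.5%, and the other beta pairs 80.2% to 85.9%. Between an alpha and a beta isotype identity was 53.7% to 55.9%.

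Counted in windows of 100 bases, 49.2% of the Tuba1a reference transcript, 65.6% of Tuba1b and 53.4% of Tuba1c also occur in another gene of the tables. For Tubb2a and Tubb2b this was 35.9% and 26.1%, each with the other gene. For Tubb4b it was 29.2%, all of it with 3 rows that hold Tubb4b-like sequence and at most 8.11 counts each. Tuba4a, Tubb3, Tubb5 and Tubb6 shared no such window. Windows were compared as transcribed, from the reference transcript of each isotype, so matches on the other strand were not sought. The deposited posterior SD of the count was 0 for Tubb3, Tubb5 and Tubb6. In each library it was also 0 for 67.3% of genes with a mean count of at least 1000. An SD of 0 at such counts leaves out sampling noise, so it is not the whole uncertainty of a count. The SD was the same for Tubb2a and Tubb2b, at 61.6 counts in replicate 1 and 69.0 in replicate 2, which is under 1% of either count. It reached 1.88% and 1.61% of the count for Tuba1c, the least abundant of the similar alpha genes. For Tuba1a and Tuba1b it was 0.0521% and 0.213% in replicate 1.

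Shared windows and the SD did not go together in every gene. Tubb4b, with 29.2% of its windows shared, had an SD of 0.0161% and 0.0105% of the count. Tuba4a had no shared window in this search and the largest relative SD, 3.33% and 2.73%. The only match found was over 50-base windows, at 31 positions, to a gene listed at 0 counts in both libraries. The transcript searched, Tuba4a-202, held 15.4% and 20.0% of Tuba4a, and the overlap with Stk16 on the other strand lay outside the search. Rows outside the 10 that resembled alpha isotypes (6 in all) summed to 0.312% and 0.271% of the alpha TPM. The 3 such beta rows summed to 0.00897% and 0.00953% of the beta TPM.

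**Figure D3:**
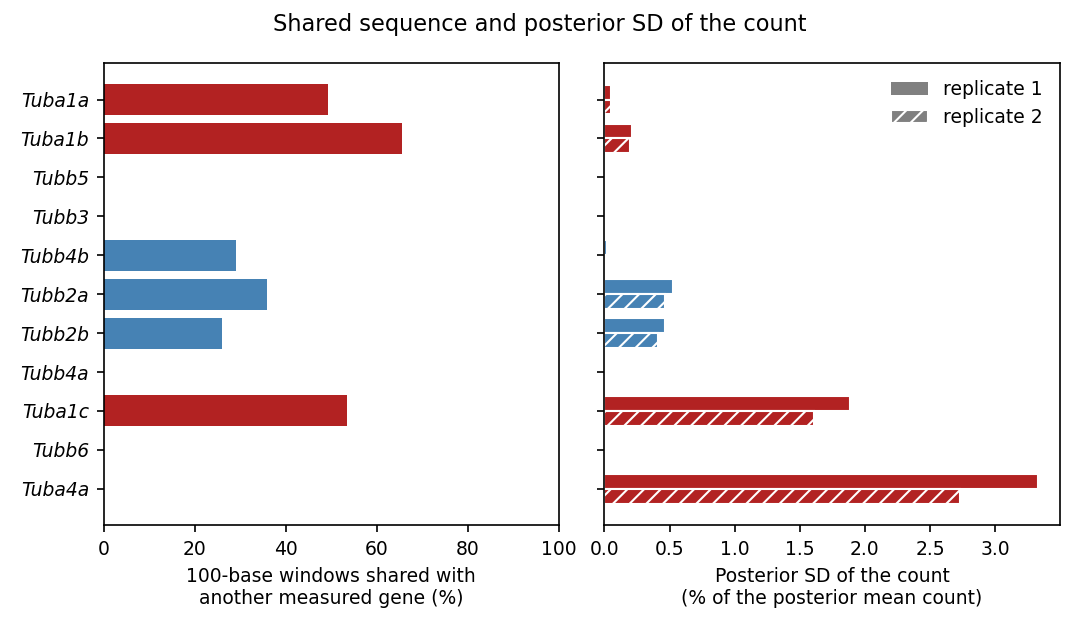
Left, percent of 100-base windows of each reference transcript that also occur in another measured gene; right, the deposited posterior SD of the count as a percent of the posterior mean count, plain for replicate 1 and hatched for replicate 2. Tuba1b shares the most windows, at 65.6%, and Tuba4a has the largest relative SD, at 3.33% and 2.73%.

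Coordinates are given on mm10 from GENCODE M21. The genes Tuba1a (chr15:98949837-98953703, minus strand), Tuba1b (chr15:98931425-98934565, minus strand) and Tuba1c (chr15:99029891-99038110, plus strand) lie close together. Tubb2a (chr13:34074274-34078007) and Tubb2b (chr13:34126748-34130466) are also neighbours, both on the minus strand. Tuba4a is at chr1:75214228-75219865 on the minus strand and overlaps Stk16 on the other strand. Stk16 had 2498 and 3104 expected counts, against 233 and 381 for Tuba4a, and its part in the Tuba4a count was not tested, since the use of strand in counting is not known. Tuba1a and Tuba1b both overlap Gm49450 on the same strand in M21. A transcript that M21 gives to Gm49450 is counted under Tuba1a in the files, with 82.5 and 110 of its counts. Tubb3 is at chr8:123411424-123422015 on the plus strand, Tubb4b at chr2:25222160-25224702 on the minus strand, and Tubb5 at chr17:35833921-35838306 on the minus strand. Each reference transcript used here has 4 exons, and coding lengths run from 1335 bases for Tubb5 to 1356 bases for Tuba1a and Tuba1b. Some transcripts are longer in M21 than in the files, which enters any level per length: Tuba1a has 1803 bases against 1647, Tubb2b 2182 against 1922, and Tubb2a 1610 against 1584. With M21 lengths and the deposited counts, Tubb2a would stand 1.21-fold and 1.22-fold above Tubb2b, and Tuba1a 3.76-fold and 3.52-fold above Tuba1b.

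For 9 of the 10 isotypes a single transcript held at least 98% of the gene in both libraries. Tuba1a-201 held 99.2% of Tuba1a in each library, Tuba1b-201 99.1% and 99.2% of Tuba1b, Tubb4b-201 99.6% and 99.4% of Tubb4b, and Tubb5-201 98.99% and 98.68% of Tubb5. Tuba1c-201, Tubb2a-201, Tubb2b-201, Tubb3-201 and Tubb6-201 were the only transcripts of their genes in the tables. Tuba4a was divided among 8 transcripts, 2 of which had no counts. Tuba4a-206 led in replicate 1 with 27.5% (27.9% in replicate 2), and Tuba4a-201 led in replicate 2 with 32.3% (25.0% in replicate 1). Tuba4a-204 held 22.4% and 14.7%, and Tuba4a-202 15.4% and 20.0%. These shares rested on at most 148.5 counts per transcript, and the deposited interval of Tuba4a-201 in replicate 1 reached from near 0 to 2.32 TPM, so no order among them is read.

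The 2 libraries were compared gene by gene with an exact binomial test on counts, two-sided, with Benjamini-Hochberg adjustment over 17148 genes. The test compares 2 libraries with each other, not conditions. At an adjusted p under 0.05 and at least 2-fold, 0 of the 10 isotypes were called, where 2.94% of all tested genes were. All 10 had an unadjusted p under 0.05, as did 43.9% of tested genes. With no minimum fold 9 of 10 passed the binomial test, beside 35.5% of all tested genes. The binomial test holds sampling noise only. With edgeR's exact test and an assumed coefficient of variation of 0.1 between replicates, 0 of the 10 passed without a minimum fold, beside 0.962% of tested genes, and the lowest adjusted p was 0.817, for Tuba4a. Of the 9 that passed the binomial test, 8 were higher in replicate 2 and 1, Tuba1a, was lower. Of the 6095 genes that passed in all, 2980 were higher and 3115 lower, or 17.4% and 18.2% of all tested genes. High counts narrow the error, so the 9 isotypes with a mean count of at least 1000 were set beside all genes above that floor: 8 of 9 passed, against 50.6%. Their deposited intervals did not overlap between libraries for 8 of 9, against 32.1% of genes above the floor and 22.4% of genes at 1 TPM in both. The floor does not match depth, since the 9 ran from 2576 and 3498 counts for Tubb6 to 280700 and 323170 for Tuba1a. The part of depth in these shares was not tested.

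The differences themselves were small. The median absolute log2 ratio of the 10 isotypes was 0.085, and that of genes with a mean count of at least 1000 was 0.089. Tuba1a had a log2 ratio of -0.05 (adjusted p = 1.81e-40, edgeR-scaled binomial test), which became 0.013 when spike-ins set the scale. The other 9 isotypes were higher in replicate 2 under each of the 4 scalings tried. Tubb3 had a log2 ratio of 0.13 (adjusted p = 1.26e-27) and Tubb4b of 0.11 (adjusted p = 1.83e-11). Tubb6 had 0.19 (adjusted p = 6.15e-06). Tuba4a had the largest, 0.45 in counts (adjusted p = 0.000791). In TPM its log2 ratio was 0.28, its effective length being 1457 bases in replicate 1 and 1643 in replicate 2, and its deposited intervals overlapped between the libraries. Tuba1c, at 0.07, did not pass (adjusted p = 0.0975). The median log2 ratio over the 10 was 0.08, and over all tested genes it was 0.00182.

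**Figure D4:**
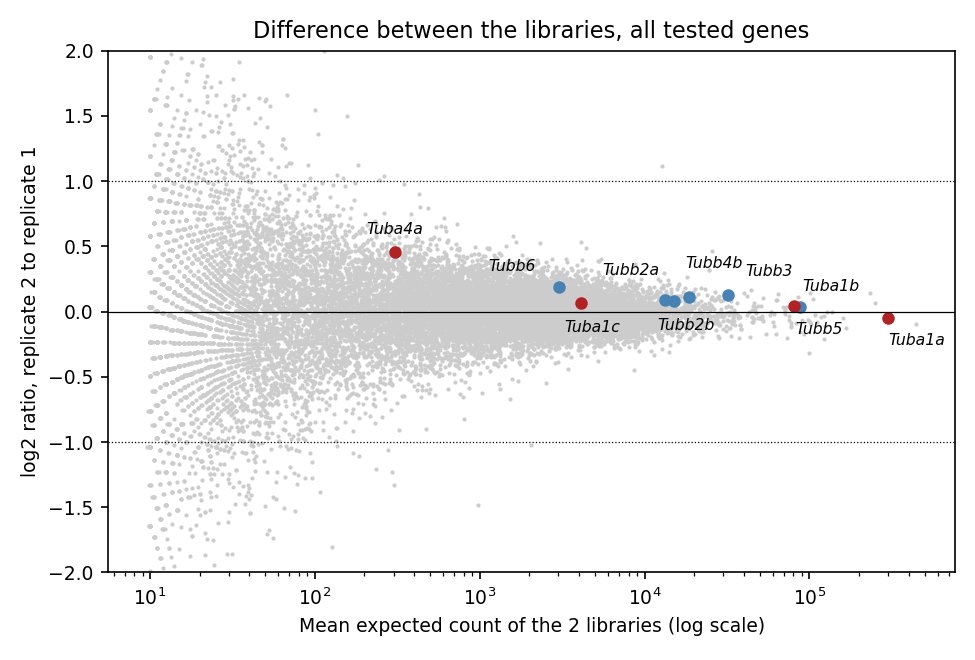
Log2 ratio of replicate 2 to replicate 1 against the mean expected count on a log axis, with tested genes in grey, alpha isotypes in red and beta isotypes in blue; dotted lines mark 2-fold, and 113 genes lie beyond the vertical axis. All 10 isotypes lie within 2-fold, between -0.05 for Tuba1a and 0.45 for Tuba4a.

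Tubb3 is widely used as a neuron marker, so other neuron genes were read beside it. Of 16 neuron genes, none was called at 2-fold, beside 2.94% of tested genes. By the binomial test with no minimum fold 2 were higher in replicate 2, as Tubb3 was, and 9 were lower, beside 17.4% and 18.2% of tested genes. Either direction held for 50.6% of genes with a mean count of at least 1000, a depth that Nhlh1 and Rbfox3 of the 16 did not reach. Crmp1, a neuronal phosphoprotein that binds tubulin, had a log2 ratio of 0.13 (205 and 223 TPM), whereas Dcx, a microtubule-associated protein of migrating neurons, had -0.31 (94.5 and 72.4 TPM). The median over the 16 was -0.06. The part of neuron content in the Tubb3 difference was not tested. The gene Gm20388 overlaps Tubb3 on the same strand and held 503 and 30.2 expected counts (log2 ratio -4.27, adjusted p = 6.21e-128). It was singled out after its values were seen. Tubb3 held 28044 and 36598 counts, shared no 50-base window with another gene, and had a posterior SD of 0.

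Tubb4a, a beta isotype known from oligodendrocytes and mature neurons, was the highest tubulin gene outside the 10. It was at 127 and 131 TPM (129 ± 2.77), above Tuba1c and Tubb6 in both libraries. Counted as a beta isotype it would hold 4.37% and 4.28% of that class, and the alpha to beta ratio would be 2.93 and 2.71. Of the 6 other alpha and beta genes listed, 2 were at 1 TPM or more in both libraries, and Tubb1, a platelet isotype, was the second at 4.66 ± 0.771 TPM. Tuba8, an alpha isotype of muscle and testis, was at 0.190 and 0.400 TPM. Tuba3a and Tubal3 were at 0.07 TPM or below, and Tuba3b had 0 counts in both libraries. A count of 0 allows up to 3 counts, or 0.0772 and 0.0653 CPM (counts scaled to library size).

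The genes that fold, nucleate, cut and modify tubulin were read from 11 lists holding 73 genes. Those lists also take in Ttc5 and the 6 other alpha and beta genes given above. Of the 73, 60 were at 1 TPM or more in both libraries, beside 32.1% of all genes. Between the libraries 0 were called at 2-fold, beside 2.94% of tested genes. With no minimum fold 28 passed the binomial test, beside 35.5% of tested genes. Some of the 73 had too few counts to be tested, so 28 of 73 understates the share among those tested. The chaperonin CCT, a ring that folds tubulin and actin, was the highest of the lists with more than 1 gene, with 8 of 8 subunits detected and a median of 472 TPM. Cct3 (589 ± 16.6 TPM), Cct5 (551 ± 4.39) and Cct8 (546 ± 22.4) led it. Of these 8, 5 were lower in replicate 2 by the binomial test with no minimum fold and 0 were higher, beside 18.2% and 17.4% of tested genes. Either direction held for 50.6% of genes with a mean count of at least 1000, a depth that all 8 reached. The median log2 ratio of the 8 was -0.04. Prefoldin, which passes new chains to CCT, was detected in 6 of 6 subunits, with a median of 125 TPM. Pfdn5 was at 309 ± 0.148 TPM, Vbp1 at 231 ± 9.17 and Pfdn6 at 152 ± 2.31.

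The folding cofactors, which assemble the alpha and beta dimer, were detected in 7 of 7 cases with a median of 53.4 TPM. Tbcb and Tbca, which bind alpha and beta tubulin respectively, were the highest at 199 ± 4.07 and 196 ± 10.9 TPM, and the small GTPase Arl2 was at 51.9 TPM in replicate 1 and 60.4 TPM in replicate 2. Genes of gamma, delta and epsilon tubulin and of the ring complex that nucleates microtubules were detected in 11 of 11 cases, with a median of 34.1 TPM. Mzt1, a small ring complex component, was at 89.7 ± 11.2 TPM, gamma tubulin Tubg1 at 78.3 ± 6.80 and Tubgcp4 at 52.2 ± 0.537. Of these 11, 4 were higher and 4 lower in replicate 2 by the binomial test with no minimum fold, beside 17.4% and 18.2% of tested genes. Either direction held for 50.6% of genes with a mean count of at least 1000, a depth that some of the 11 did not reach. The severing enzymes, which cut microtubules, were detected in 7 of 7 cases with a median of 25.2 TPM, led by Fignl1 (79.9 ± 5.18), Katna1 (56.3 ± 0.0283) and Spast (32.4 ± 1.15).

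**Figure D5:**
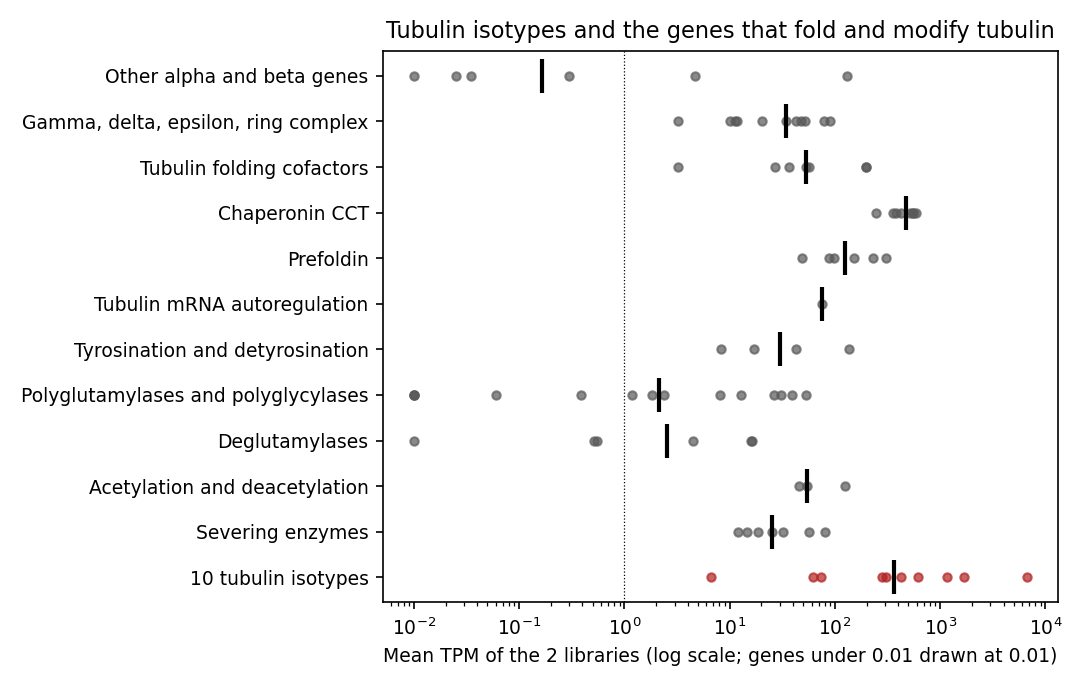
Mean TPM of the 2 libraries on a log axis for each gene of 11 lists and of the 10 isotypes (red), with a vertical tick at each list's median and a dotted line at 1 TPM. The isotypes reach from 6.61 to 6672 TPM, and the chaperonin subunits lie close together between 245 and 589 TPM.

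Among the genes that act on the terminal tyrosine of alpha tubulin, 4 of 4 were detected. Svbp, the partner of the detyrosinating vasohibins, was at 135 ± 3.86 TPM, Vash2 at 42.8 ± 3.01 and Vash1 at 17.0 ± 0.651. Ttl, the ligase that puts tyrosine back, was at 8.34 ± 0.757 TPM, the lowest of the 4. Of the acetylation genes 3 of 3 were detected, with the acetyltransferase Atat1 at 124 ± 6.10 TPM and the deacetylases Sirt2 and Hdac6 at 54.0 ± 6.49 and 45.5 ± 1.36.

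Of the polyglutamylase and polyglycylase genes, which add side chains to the acidic tails, 8 of 14 were detected. Subunits of the complex built around Ttll1 were the highest, with Tpgs1 at 53.1 ± 2.97 TPM and Tpgs2 at 38.9 ± 1.02, and the glutamylase Ttll4 followed at 31.0 ± 0.509. Ttll9 was at 1.54 TPM in replicate 1 and 0.830 TPM in replicate 2. Ttll13 was at 0.390 ± 0.283 TPM and Ttll10 at 0.0600 ± 0.0849. Ttll2, Ttll6 and Ttll8 had 0 counts in both libraries, under the limit given above for Tuba3b. Of the deglutamylases, which shorten those chains, 3 of 6 were detected. Agbl5 was at 16.4 ± 0.141 TPM, Agtpbp1 at 16.02 and 15.91 TPM in the respective libraries and Agbl3 at 4.51 ± 0.205, while Agbl4 (0.545 ± 0.177), Agbl2 (0.510 ± 0.184) and Agbl1 (1 count in each library) were under 1 TPM.

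Across the whole series, the libraries held 38884247 and 45975100 expected counts on genes, and they differed by more than sampling noise. The midbrain label was checked on 10 midbrain genes, all detected, where 32.1% of all genes were. Their median was 12.25 TPM, with Otx2 the highest at 169 and 171 TPM and Lmx1b the lowest at 1.55 and 1.66 TPM. Of 12 Hox genes of hindbrain and spinal cord 0 were detected. Of 10 forebrain genes 7 were, with a median of 4.43 TPM over the 10, led by Lhx2 at 44.9 ± 3.51 TPM. Lhx2 was above every listed midbrain gene except Otx2, so these lists cannot set midbrain apart from forebrain. Of these forebrain genes 3 differed at 2-fold between the libraries, in both directions, beside 2.94% of tested genes. All 16 progenitor genes and all 16 neuron genes were detected. Markers of red cells (9 of 9 measured), vessels (10 of 10), mesenchyme (8 of 8) and microglia or macrophages (7 of 8) were also present, so the isotypes' levels are those of the mixed tissue. The part of each cell type in them was not tested.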

How the data were processed

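Total RNA libraries from 2 embryo pools were analysed, with 10 ng of RNA over 200 nt and added spike-ins per library. Per the file headers, the authors deposited an expected count, a TPM and a posterior mean TPM for each gene and transcript. They also deposited interval bounds and a posterior SD of the count, treated here as signal without a fixed total, and each transcript's percent of its gene. Aligner, quantifier, interval level and use of strand: not given in the sources used here, so overlapping genes are uncertain. The printed TPM is the maximum likelihood value, which lies slightly above its interval for several isotypes, and intervals go with the posterior mean. TPM was scaled over spike-ins too, which took 15.2% and 14.8% of it. Deposited length less effective length was 99 bases for transcripts longer than that.

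The accompanying notes name mm10 and annotation M4. Symbols, coordinates and sequences came from GENCODE M21, and 42462 genes matched. Rows with bare numbers (26248, with 4.44 and 13.25 counts in all) and 96 spike-ins were left out of gene totals. Protein sequences were not used here. The ends of some alpha coding sequences are not reported here.

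Expected counts were rounded to whole numbers. The binomial test used edgeR 4.0.16 TMM scaling, a minimum of 20 counts summed over both libraries, and log2 ratios with a prior count of 1. In counts simulated for replicate 2 against replicate 1, 100% of 100 genes changed 3-fold and of 100 changed 8-fold were called among 17154 tested, with 1 false call. That simulation held sampling noise only. PCR copies are not independent molecules, so intervals and limits cover counting error only. Alternatives included DESeq2 1.42.0 size factors, other scalings, units and filters, and leaving out each replicate. Coding sequences were aligned with Biopython 1.88.

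The members and gene lists were chosen with earlier results of these data known. Named were the 10 isotypes, the 3 highest genes of each tubulin list and those under 1 TPM, the leading transcript of each isotype and any other at 5% or more in both libraries, and other genes where they hold at least 1% of a class. A few genes beside them are named as marker checks or overlapping genes. Likeness to other genes' patterns was not measured, since 2 libraries of 1 group define none. Scripts ran in R 4.3.3 and Python 3.11.15, with matplotlib 3.10.9 for figures and scipy 1.17.1 for tests.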

Additional observations from a re-analysis of the deposited data

How the results depend on the processing

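The alpha share of the 10 isotypes was 74.6% as a mean of TPM and 69.6% of expected counts, and 73.8% with all other alpha and beta rows in the sum. Leaving out a replicate gave 73.9% to 75.4%. The count of isotypes called between the libraries was 0 under DESeq2, total-count and spike-in scaling, without the filter and with edgeR. Without a minimum fold it was 9 by the binomial test and 0 by edgeR. Over all genes the calls at 2-fold were 504 in the main setting, 501 with DESeq2, 506 with total-count and 506 with spike-in scaling. Without the filter they were 750 of 23744 tested genes. The binomial test without a minimum fold called 6095, and edgeR called 155 at 2-fold and 165 without. Chosen after seeing the data, M21 transcript lengths moved Tubb2a over Tubb2b from 1.08-fold to 1.22-fold. The log2 ratio of Tuba1a changed sign, from -0.05 to 0.013, with spike-in totals, which shifted all genes by 0.064. Of 73 tubulin pathway genes 60 were at 1 TPM, 61 at 0.5 TPM and 54 at 5 TPM. No paired analysis was possible because the series holds 1 group. With 2 libraries the SD is poorly known, and Tuba4a, at 233 and 381 counts, is limited by depth.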

Other observations

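Tubb1, the beta tubulin of platelets and their precursors, was at 5.20 TPM in replicate 1 and 4.11 TPM in replicate 2, on 182 and 172 counts. Genes of megakaryocytes and platelets were read beside it, in a list chosen after its value was seen. Of 10 such genes, Tubb1 included, 9 were at 1 TPM or more in both libraries, beside 32.1% of all genes. The chemokines Pf4 and Ppbp led them at 64.8 ± 7.08 and 13.8 ± 1.51 TPM (SD, n = 2), the integrin Itga2b was at 3.71 ± 0.375 TPM, and Gp6 was under 1 TPM at 0.560 ± 0.0849.

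Of the 6 rows that resembled alpha isotypes, the highest was Gm14150, at 417 and 405 expected counts and 12.4 and 10.1 TPM, above Tuba4a in both libraries. It was singled out after its values were seen. It shared 815 windows of 50 bases with Tuba1b.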
